A study of Mus musculus with 4 samples.

Results

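Elavl contacts in RNA were examined for 10 genes of the neuronal microtubule system, of 21896 coding genes. They comprised the structural microtubule-associated proteins Map1a, Map1b, Map2, Map4, Map6 and Mapt, the doublecortin family genes Dcx, Dclk1 and Dclk2, and Pafah1b1, which encodes Lis1. The genes were listed by name and function, with earlier results of these data known, as were the other gene lists below. A peak was taken for a gene where it touched the gene's span in RefSeq (GRCm38.p6) on the strand of most of that gene's peaks. This gave 269 peaks of the 105110 in all, of which 240 (0.245% of the list) came from cortex and 29 (0.395%) from N2A.

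The contacts came from HITS-CLIP, in which ultraviolet light bonds a protein to the RNA it touches and the protected fragments are sequenced after immunoprecipitation. Mouse cortex was represented by 3 samples (degenerate linker of 25 nt) that shared a single list of 97775 peaks, and N2A, a mouse neuroblastoma cell line, by 1 sample (linker of 7 nt) with 7335 peaks. Linker design and group cannot be told apart. The cortex list carries the words for 2 months in its name, which the labels do not explain. The labels used here give no strain, genotype, age, sex or antibody. Peaks were 50 to 51 nt wide, each with the authors' p-value and no read count. Depth is therefore unknown, no value belongs to a single sample, and no spread between replicates or test between groups could be computed. A p-value here orders the peaks of its own list, and p-values of cortex and N2A are not set against each other. Intervals given for shares are Wilson 95% intervals that cover counting error only, and peaks of the same gene share a transcript.

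Neuronal Elavl proteins bind U-rich and AU-rich stretches in introns, where they are known to influence splicing and polyadenylation, and in the untranslated ends of mature messages, where they are known to influence stability and translation. Microtubule-associated proteins coat and stabilise the polymer, with Map2 the classical protein of dendrites, tau (Mapt) enriched in axons and Map1b prominent in growing axons. Doublecortins bind between protofilaments and are known for their part in the migration of young neurons. Lis1 regulates the motor dynein, and loss of a gene copy in humans causes lissencephaly, as mutation of doublecortin does.

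As a check of the labels, cortex peaks were found in 4 of 4 excitatory neuron markers, 3 of 4 interneuron markers, 3 of 4 astrocyte markers, 4 of 4 oligodendrocyte markers and 1 of 4 microglia markers. The microglia marker was P2ry12, with 8 cortex peaks, 0 of them within 5 kb of the gene end, and a lowest p of 0.00463. Whether these peaks belong to another gene at the same place was not examined. Sst, Gfap, Csf1r, Cx3cr1 and C1qa had 0 cortex peaks. N2A peaks were found in 0 of these 20 genes. For comparison, 40.8% of coding genes had a cortex peak and only 14.4% an N2A peak, so few N2A peaks are found in most sets of this size. Of the sympathoadrenal genes reported here, Phox2a, Hand2, Gata2 and Mycn had N2A peaks, while Gata3, Th and Dbh had 0. In cortex, Gata3 and Mycn had 1 peak each and the others 0, so Gata3 had a peak in cortex and none in N2A. Expression was not measured. In tissue, fewer cells of a type and less RNA per cell cannot be told apart, and a gene without peaks may lack the transcript or the contact.

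All 10 genes carried Elavl peaks in cortex, where 40.8% of 21896 coding genes did. The numbers ran from 5 to 55 with a median of 22.0, against a median of 4 over the 8930 coding genes with a cortex peak. Map2 had 55 peaks, Dclk1 44, Pafah1b1 40, Map1b 24, Mapt 24, Map4 20, Dcx 12, Dclk2 11, and Map1a and Map6 5 each. Without replicate values, whether neighbours in this order differ could not be tested. At least 10 cortex peaks were found in 8 of the 10 genes, against 10.2% of coding genes, and at least 20 in 6, against 4.85%. These spans are long, with a median of 98.9 kb against 36.2 kb for coding genes with a cortex peak, and the part of length in the counts was not tested. Per 10 kb of span the median of the 10 genes was 1.80 peaks, against 1.23.

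N2A peaks were found in 6 of the 10 genes, against 14.4% of coding genes and 32.2% of those with a cortex peak. All 6 also had cortex peaks, a share near the 91.2% of coding genes with an N2A peak that had one too. Peaks in both lists were thus found in 6 of the 10, against 13.1% of all coding genes. Map1b had 18, Pafah1b1 6, Map2 2, and Map6, Mapt and Dclk1 1 each. Map1a, Map4, Dcx and Dclk2 had 0. At least 10 N2A peaks were found in 1 of the 10 genes, against 0.201% of coding genes, and at least 20 in 0, against 0.00457%. More N2A than cortex peaks were found in 0 of the 6, against 7.69% of coding genes with peaks in both lists. With peaks of p under 0.05 alone, N2A peaks were left in 4 genes, because the lone peaks of Mapt (p of 0.0748) and Dclk1 (p of 0.0897) fell away. The whole cortex list was 13.3 times as long as the N2A list. The ratio over the 10 genes was 8.28, and it was 19.6 without Map1b. Single genes lay on either side of the list ratio, at 1.33 for Map1b, 5 for Map6, 6.67 for Pafah1b1, 24.0 for Mapt, 27.5 for Map2 and 44.0 for Dclk1. Ratios that rest on 1 or 2 N2A peaks carry little precision. Per 10 kb of span, Map1b had 1.89 N2A peaks and Pafah1b1 1.19, more than 85.6% and 75.4% of the coding genes with an N2A peak. Map6 (0.142), Mapt (0.0974), Map2 (0.0748) and Dclk1 (0.0337) lay low in that order, above 16.6%, 9.97%, 6.47% and 1.36% of them. The part of span length in the N2A counts was not tested either.

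**Figure D1:**
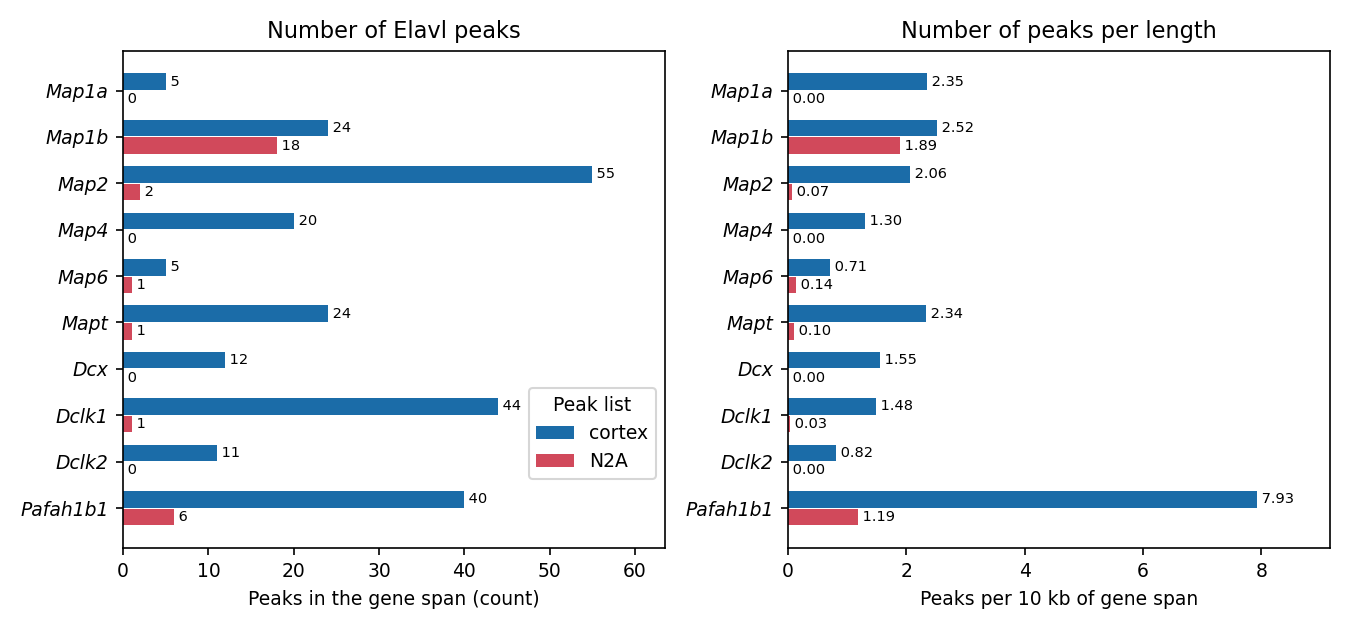
Number of Elavl peaks in each gene span (left, count) and per 10 kb of span (right), with cortex in blue and N2A in red. Map2 has the longest cortex bar at 55 peaks, Pafah1b1 the longest per length at 7.93, and Map1b the longest N2A bar at 18, beside 24 in cortex.

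Map1b encodes a large protein whose heavy and light chains decorate microtubules of extending axons. Its span of 95.1 kb lies on the minus strand of chromosome 13 (99421464 to 99516602). The 24 cortex peaks and 18 N2A peaks formed 2 groups with a nearly empty stretch between them. In cortex, 2 peaks lay in the last 5 kb of the gene, 2 between 5 and 50 kb from the end, and 20 beyond 50 kb. In N2A the same bands held 10, 1 and 7. The N2A peaks thus lay mostly at the end of the gene and the cortex peaks mostly in the part nearer its start.

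Both cortex peaks in the last 5 kb of Map1b had a p listed as 0, the lowest value in the list, which was reached by 0.269% of coding genes in cortex and by 3 of the 10 genes here (Map1b, Dclk1 and Pafah1b1). They lay at chr13:99423973-99424024 and chr13:99424342-99424393, which is 2.53 and 2.90 kb from the gene end. The N2A peak with a p listed as 0 lay at chr13:99423965-99424016 and overlapped the former by 43 nt. Such a value was found in 0.0320% of coding genes in N2A and in no other gene of this set. On either side of it, N2A peaks followed at 0.641, 1.05, 1.2, 1.76, 2.17, 3.12, 3.85, 4.17 and 4.37 kb from the end. Their p-values ran from 2.47e-82 at 1.76 kb to 0.0702 at 1.2 kb, and 9 of the 10 were under 0.05. The N2A list thus held 10 sites in a stretch where the cortex list held 2.

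The group of peaks towards the start of Map1b was shared in part. In cortex it ran from 53.9 to 90.5 kb from the gene end. The whole band from 50 kb to the gene start held 4.43 cortex peaks per 10 kb, against 0.444 between 5 and 50 kb. The strongest cortex peak of the group lay at chr13:99499107-99499157 with a p of 3.15e-89, rank 775 of the list. The 7 N2A peaks of that group lay between 59.1 and 74.6 kb from the end. The strongest of them, at chr13:99484229-99484280 (p of 4.93e-10), overlapped a cortex peak by 42 nt, and another at 74.1 kb overlapped a cortex peak by 20 nt. Exons were not used here, so whether these sites are intronic was not determined.

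Only 1 coding gene in the N2A list had more peaks than Map1b. The 5 coding genes outside the set with the most similar pair of counts, by distance between log2(peaks + 1) values over the 2 lists, were Tnpo1 (31 cortex and 17 N2A peaks), Msi2 (27 and 12), Lrrc58 (21 and 12), Efna5 (37 and 17) and Cbx5 (15 and 20). In each of them more cortex peaks lay in the last 5 kb than the 2 of Map1b, from 4 in Msi2 to 13 in Lrrc58. N2A peaks there numbered 14 in Tnpo1, 11 in Msi2, 8 in Lrrc58, 8 in Efna5 and 11 in Cbx5, against 10 in Map1b. As in Map1b, they outnumbered the cortex peaks there in all of these genes but Lrrc58.

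Map1a, the relative of Map1b found mainly in mature neurons, had 5 cortex peaks and 0 in N2A. Its span of 21.2 kb on chromosome 2 is the shortest of the set. All 5 peaks lay in its last 5 kb, at 0.258, 0.701, 1.32, 1.51 and 2.38 kb from the end, and all had p under 0.05. The strongest, at chr2:121308425-121308476 on the plus strand, had a p of 4.69e-28. The outermost peak also touched the span of the neighbouring gene Ppip5k1. The rest of Map1a held no peak, whereas most cortex peaks of Map1b lay far from its end.

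Map2, the dendritic microtubule protein, had the most peaks. Its span of 267 kb lies on the plus strand of chromosome 1 (66175202 to 66442583). The 2 strongest cortex peaks were the only cortex peaks in its last 5 kb, at chr1:66442202-66442253 (p of 7.65e-292) and chr1:66440215-66440266 (p of 1.10e-205). They stood 0.355 and 2.34 kb from the gene end and ranked 87 and 198 in the list. The other 53 were far weaker, the next being at 40.3 kb with a p of 9.62e-37 and rank 2501. Of these, 28 lay between 5 and 75 kb from the end, at 4 per 10 kb, and 25 in the remaining 192 kb, at 1.3 per 10 kb. Peaks of Map2 thus became sparser towards the start of the gene and reached to 267 kb from the end, with a longest gap of 33.6 kb. Those with p of 0.05 or more numbered 14.

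Both N2A peaks of Map2 lay in the last 5 kb, at 1.92 kb (p of 3.00e-07) and 2.52 kb (p of 0.0874) from the end. Neither overlapped a cortex peak, and they lay 370 and 130 nt from the nearest. None of the 53 distant cortex positions had an N2A counterpart. Within the span, 2 cortex peaks also touched the noncoding gene Gm51629.

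Mapt encodes tau, the axonal relative of Map2 with a similar microtubule-binding repeat region. It had 24 cortex peaks over 103 kb on the plus strand of chromosome 11 (104229409 to 104332090). Peaks were densest in the last 5 kb, which held 7 of them, or 29.2% (14.9 to 49.2). They lay at 0.153, 0.366, 0.684, 1.14, 2.17, 2.42 and 3.68 kb from the end, with a lowest p of 6.14e-12. In contrast to Map2, the strongest peaks of Mapt lay further in. The first was at chr11:104317417-104317468, 14.6 kb from the end, with a p of 1.14e-43, and the next at 66.4 kb with a p of 1.16e-21. The lone N2A peak of Mapt, at chr11:104297424-104297475 and 34.6 kb from the end, overlapped a cortex peak by 46 nt.

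Map4, the member of the Map2 and tau family that is also made outside neurons, had 20 cortex peaks in a span of 154 kb on chromosome 9 and 0 in N2A. Its strongest peak stood near the middle of the gene, at chr9:110005263-110005313 on the plus strand, 78.7 kb from the end. The p of this peak was 1.06e-266 and its rank 107. The next peak of the gene, 1.72 kb from the end, had a p of 4.07e-14 and rank 7392. The band from 70 to 80 kb held 4 peaks, as many as the last 5 kb, and the others in it were weaker, with a lowest p of 0.00235. Map4 was the sole gene of the set whose only peak in the top 1% of the cortex list lay away from the gene end.

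Map6, the protein that protects microtubules from cold and drugs, had 5 cortex peaks over 70.4 kb on the plus strand of chromosome 7, none of them in the last 5 kb. They lay 8.32, 12.8, 17.1, 47.1 and 47.3 kb from the end, all with p under 0.05. The strongest was at chr7:99319964-99320015 with a p of 5.87e-07. The single N2A peak, at chr7:99319948-99319998 (p of 0.00202), overlapped that very peak by 34 nt. Map6 and Map1b were the genes of the set where the lowest-p peak of one list overlapped the lowest-p peak of the other.

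Among the doublecortins, Dcx had 12 cortex peaks, Dclk1 44 and Dclk2 11, and N2A showed a single peak, in Dclk1. Dcx encodes doublecortin itself, a marker of migrating and newborn neurons. Its span of 77.6 kb lies on the minus strand of chromosome X (143855842 to 143933396). A cluster of 9 of the 12 peaks lay in the last 10 kb, at 1.07, 1.49, 1.94, 2.04, 2.76, 3.17, 5.29, 5.86 and 6.72 kb from the end, which is 9 peaks per 10 kb against 0.444 in the remaining 67.6 kb. Their p-values ran from 0.000438 to 0.0836, which placed them from 29.9% to 92.9% down the cortex list. The strongest peak of Dcx stood apart from the cluster, 67.1 kb from the end at chrX:143922939-143922989, with a p of 3.08e-06.

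Dclk1 encodes a kinase with a doublecortin domain, and it lies on the plus strand of chromosome 3 (55242303 to 55539068, 297 kb). Its 2 strongest cortex peaks lay in the last 5 kb, at chr3:55535416-55535467 with a p listed as 0 and at chr3:55538299-55538350 with a p of 5.27e-104. The next strongest lay 16.7 kb from the end (p of 1.52e-42). The other 41 peaks had p of 7.72e-10 or more. Of the cortex peaks, 5 also touched another gene span, that of Gm31443 (58.9 to 67.1 kb from the end) or Gm9831 (147 and 152 kb), and they are counted below. RefSeq gives Dclk1 a start near the beginning of the span and an internal start 77.3 kb from the end. Downstream of the internal start lay 25 peaks, or 3.23 per 10 kb, and upstream of it 19 peaks, or 0.866 per 10 kb. The 25 ended 75.1 kb from the gene end, and the next peak followed after a gap of 58.4 kb, the longest in the gene. Peaks upstream of that start were weaker, the lowest p being 0.000302. The lone N2A peak of Dclk1, at 71.8 kb, also lay downstream of the internal start, 53 nt from a cortex peak. In Map2, where the RefSeq starts used here include no internal one, cortex density also fell. It was 4 per 10 kb between 5 and 75 kb from the end and 1.3 beyond. The part of the internal start in the Dclk1 counts was not tested.

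Map4 likewise has an internal start, 31.9 kb from its end, with 7 cortex peaks downstream of it (2.19 per 10 kb) and 13 upstream (1.06 per 10 kb). Stretches of 60 bases before these internal starts are shown, near the point where peak density was compared. Each was centred on the longest run of T, the DNA letter for U, in the 250 bases before the start. That they hold a run of T therefore follows from how they were picked. No peak lay in them. Runs of at least 5 T on the gene strand are in capitals. The sequences are from RefSeq (GRCm38.p6), at chr3:55461522-55461581 for Dclk1 and chr9:110051849-110051908 for Map4, both on the plus strand.

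Dclk1: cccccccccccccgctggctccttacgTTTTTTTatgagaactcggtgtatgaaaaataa

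Map4: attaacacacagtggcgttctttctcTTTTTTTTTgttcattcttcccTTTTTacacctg

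The longest run was 7 T in Dclk1 and 9 T in Map4, and the nearest cortex peaks lay 2.41 and 2.05 kb away. Of the 32851 RefSeq promoter windows (250 bases before to 50 after a start), 26.2% held a run of at least 5 T, 6.36% a run of at least 7 and 3.31% a run of at least 9. These runs are a description of the sequence and no measure of binding. The sequence under the peaks themselves was not analysed here.

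**Figure D2:**
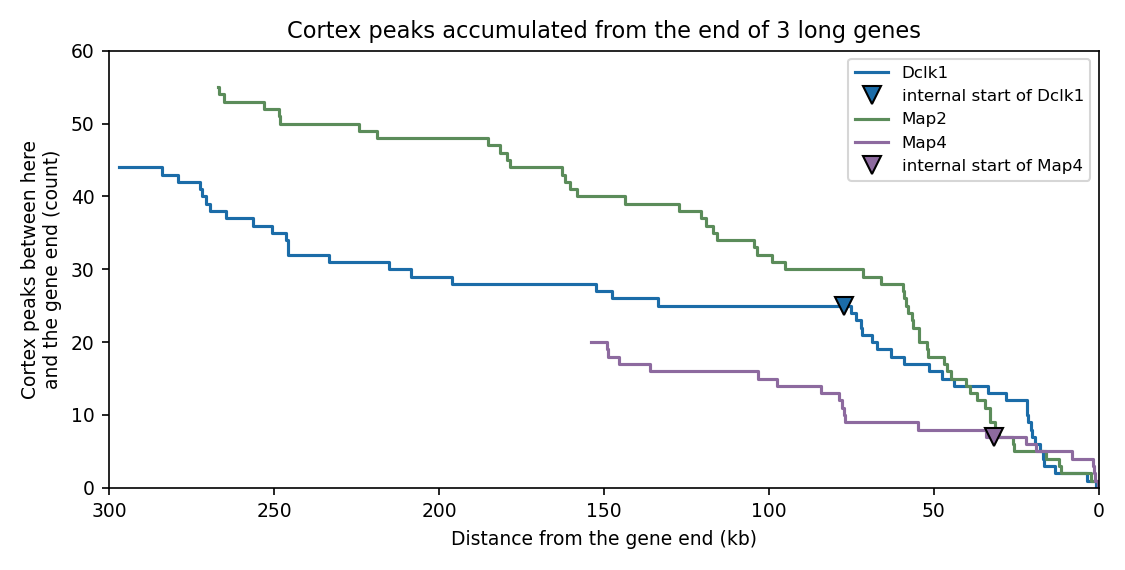
Cortex peaks counted from the gene end (right, 0 kb) towards the start (left) in Dclk1, Map2 and Map4, with triangles at the internal starts of Dclk1 and Map4. The Dclk1 line climbs to 25 peaks by 75.1 kb, just short of the triangle at 77.3 kb, and then stays flat for 58.4 kb.

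Dclk2, the relative of Dclk1, had 11 cortex peaks spread over 135 kb on the minus strand of chromosome 3. The strongest lay 0.768 kb from the end at chr3:86786893-86786944 with a p of 3.54e-07, and it was the only one in the last 5 kb. The other 10 lay between 11.2 and 114 kb from the end. Over all 11 peaks the median spacing was 10332 nt. With 0.816 peaks per 10 kb, Dclk2 and Map6 (0.711) were the sparsest of the set. Dcx had 1.55 and Dclk1 1.48 per 10 kb.

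Pafah1b1 encodes Lis1, the regulatory partner of dynein. Its span of 50.4 kb lies on the minus strand of chromosome 11 (74673949 to 74724384), and its 40 cortex peaks amount to 7.93 per 10 kb. This was the highest density of the set, and it exceeded that of 98.0% of the coding genes with a cortex peak. The span cut into 4 equal parts held 14, 11, 9 and 6 peaks from start to end, and the longest gap was 4.93 kb. They lay at a median spacing of 924 nt, and 33 of the 40 had p under 0.05. Density rose away from the gene end, with 6.50 peaks per 10 kb between 5 and 25 kb and 9.83 beyond 25 kb.

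The strongest cortex peak of Pafah1b1, with a p listed as 0, lay at chr11:74674615-74674665, 0.691 kb from the gene end. The other cortex peak of the last 5 kb lay at 0.371 kb. Next in strength came peaks at 27.9 kb (p of 1.14e-24) and 5.62 kb (p of 1.91e-23). All 6 N2A peaks lay in the last 5 kb, at 0.641, 1.25, 2.10, 2.33, 2.56 and 3.04 kb from the end, and all had p under 0.05. The strongest of them, at chr11:74676022-74676073 (p of 2.98e-16), lay 1357 nt from any cortex peak. The N2A peak at chr11:74674565-74674615 ended where the strongest cortex peak began and shared no base by the overlap rule. The N2A list had no peak in the rest of the gene, where cortex had 38.

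**Figure D3:**
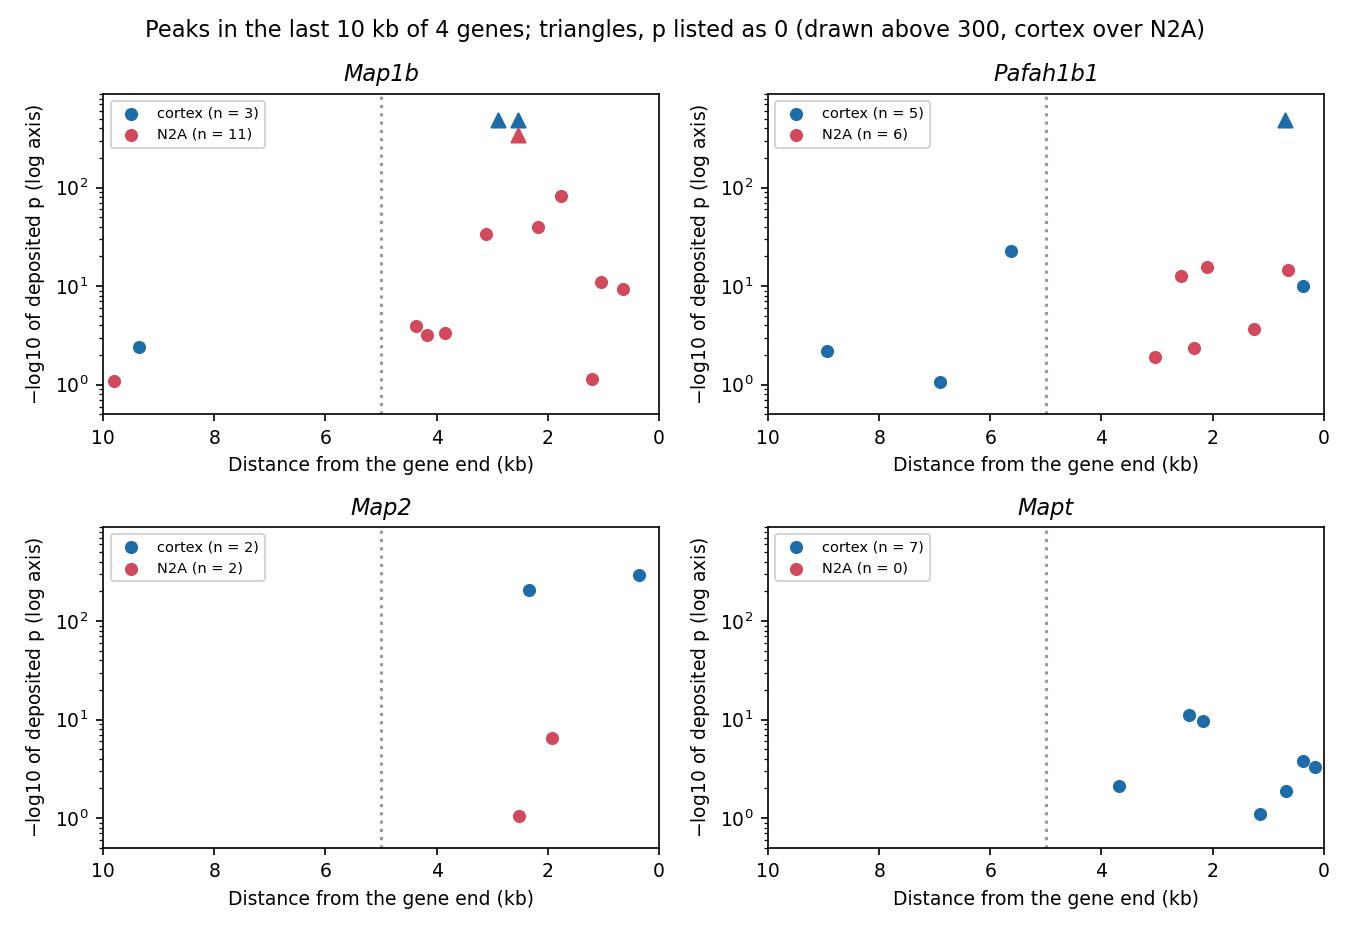
Peaks in the last 10 kb of Map1b, Pafah1b1, Map2 and Mapt, by distance from the gene end (kb) and the negative log10 of the deposited p (log axis), with a dotted line at 5 kb and triangles for p listed as 0. In the last 5 kb, N2A (red) has 10 peaks in Map1b and 6 in Pafah1b1 where cortex (blue) has 2 in each, and heights are not comparable between the lists.

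Over the 10 genes, 31 of 240 cortex peaks lay in the last 5 kb, or 12.9% (9.25 to 17.8), against 19.9% (19.7 to 20.2) of the cortex peaks in coding genes. In N2A the count was 18 of 29, or 62.1% (44.0 to 77.3), against 79.0% (78.0 to 79.9). Genes with a long span have more room away from the end, and the part of length in these shares was not tested. A cortex peak in the last 5 kb was found in 9 of the 10 genes, the exception being Map6, against 31.3% of all coding genes and 76.7% of those with a cortex peak. An N2A peak there was found in Map1b, Map2 and Pafah1b1, against 12.2% of all coding genes. Those are 3 of the 6 genes with an N2A peak, where the share over coding genes was 84.9%.

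Strong peaks lay near the gene end more often than peaks as a whole, in these genes and over all coding genes. Of the 240 cortex peaks, 9 belonged to the top 1% of the list, and 7 of these lay in the last 5 kb, or 77.8% (45.3 to 93.7), against 77.1% over coding genes. They were 3 in Map1b, 2 each in Map2 and Dclk1, and 1 each in Map4 and Pafah1b1. The lowest-p cortex peak lay in the last 5 kb in 6 of the 10 genes (Map1a, Map1b, Map2, Dclk1, Dclk2 and Pafah1b1), against 59.9% of coding genes with a cortex peak, a share near that background. The exceptions were Map4, Map6, Mapt and Dcx. In N2A it lay there in 3 of 6 genes, against 81.7%.

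**Figure D4:**
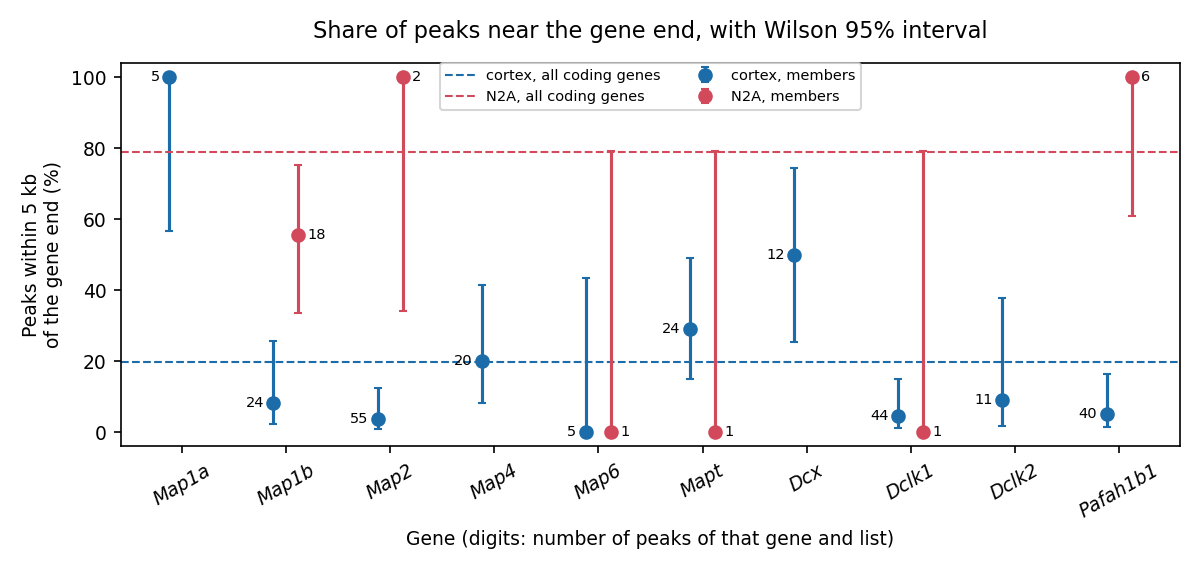
Share of each gene's peaks within 5 kb of the gene end (%) for cortex (blue) and N2A (red), with Wilson 95% intervals, the number of peaks beside each point, and dashed lines at the share over all coding genes (19.9% and 79.0%). In cortex Map1a stands at 100%, Map2 at 3.64% and Map6 at 0%, and intervals from 1 or 2 N2A peaks span most of the axis.

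The positions of N2A peaks seldom coincided with cortex peaks. Of the 29, 5 overlapped a cortex peak by at least 1 nt, or 17.2% (7.60 to 34.5), against 42.3% (41.2 to 43.5) of the N2A peaks in coding genes. They were 3 in Map1b and 1 each in Map6 and Mapt. Allowing a gap of 100 nt gave 31.0% against 60%, and allowing 1000 nt gave 65.5% against 87.0%. By gene, 3 of the 6 genes with N2A peaks had such an overlap, against 62.2% of coding genes with N2A peaks. Map1b and Pafah1b1 had more N2A than cortex peaks in the last 5 kb. These are 2 of the 6 genes with peaks in both lists, where the share over coding genes was 17.6%. Of these N2A peaks, 1 of 10 in Map1b and 0 of 6 in Pafah1b1 overlapped a cortex peak. The 0 of Pafah1b1 depends on the overlap rule, since 1 of its N2A peaks ended at the position where its strongest cortex peak began. Counting end positions as part of a peak would make this an overlap and add Pafah1b1 to the genes with one. The shares over coding genes under that rule were not computed.

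Other genes of the microtubule system carried peaks in both lists as well. Of 79 such genes in 4 lists, 67 had a cortex peak and 30 an N2A peak, with medians of 6 and 0 peaks. Over all coding genes, 40.8% had a cortex peak and 14.4% an N2A peak, which is the background for each of the 4 lists. Among structural relatives, including Map7, Map9, the spectraplakins Macf1 and Dst and further doublecortin genes, 11 of 15 had cortex peaks and 5 had N2A peaks. Dclk3, Dcdc2a and Map1lc3a had 0 in both lists. Map7d2, a protein that recruits kinesin to microtubules, had 8 cortex and 4 N2A peaks (lowest N2A p of 2.55e-56), and Dst, a crosslinker of microtubules and actin, had 41 and 3 (4.99e-21). Mtus1 had 6 and 1, Map9 had 9 and 1, and Map1s, a relative of Map1a and Map1b, had 0 and 1.

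Among partners of Lis1, 19 of 22 genes had cortex peaks and 9 had N2A peaks. Dynll2, a dynein light chain, had 2 cortex and 4 N2A peaks (lowest N2A p of 9.60e-111). Pafah1b2, the catalytic subunit that binds Lis1 in the acetylhydrolase complex, had 8 in each list (lowest p of 7.80e-224 in cortex and 1.37e-60 in N2A). All 8 of its N2A peaks lay in the last 5 kb, as those of Pafah1b1 did. Its sister subunit Pafah1b3, the Lis1 partner Nde1 and the dynactin gene Dctn3 had 0 in both lists. The light chains Dynlrb1, Dynll1 and Dynlt3 had 2, 1 and 2 N2A peaks.

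Of proteins at microtubule ends and severing enzymes, 18 of 21 genes had cortex peaks and 9 had N2A peaks. Clasp2, a plus-end stabiliser, had 66 cortex peaks, more than any of the 10 genes, and 3 in N2A. The 5 with the lowest N2A p were Slain2, Camsap2, Fignl1, Mapre1 and Clasp2, and Fignl1 had 2 N2A peaks and 0 in cortex. Of the kinases, phosphatases and tubulin-modifying enzymes that act on these proteins, 19 of 21 had cortex peaks and 7 had N2A peaks. Ppp2ca, the catalytic subunit of the phosphatase that acts on tau, had 2 cortex and 5 N2A peaks (lowest N2A p of 1.60e-34). Gsk3b, a tau kinase, had 35 and 4 (4.92e-15). Next by N2A p came Mark2 (15 and 1), Ttll7 (18 and 1) and Mapk8 (20 and 2). Over the 79 genes, 21.5% of cortex peaks and 84.6% of N2A peaks lay in the last 5 kb, shares near the 19.9% and 79.0% over all coding genes.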

How the data were processed

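Elavl HITS-CLIP libraries of 3 cortex samples and 1 N2A sample were represented by 1 peak list per group. Per the file headers, the deposited lists give chromosome, start, end, label, p-value and strand. The submitters' processing notes name Novoalign and hg19, with no version or role, and no label or header used here names the peak caller, its filters or how samples were pooled. Chromosome names are those of mouse, and coordinates were read as GRCm38 and are printed as deposited, since whether they count from 0 or 1 is not stated.

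The members and gene lists were chosen with earlier results of these data known, and the distance bands within genes after the positions were seen. Python 3.11.15 with pandas 2.3.3, NumPy 2.4.6 and SciPy 1.17.1 was used, and the assignment of peaks was tested on simulated data. All deposited peaks were used. A peak counted for every span it touched, on the strand of most of the gene's peaks in both lists. That strand was the RefSeq strand in 95.6% of 7346 coding genes and in the 8 members with an entry in the RefSeq promoter table (Map6 and Mapt had none). No member had a peak on the other strand, or one within 5 kb past its end. Distance ran from the middle of a peak to the end of the RefSeq span, and peaks sharing 1 nt or more of a strand counted as overlapping. For overlap between peaks, the end position was not counted as part of a peak. Because the reference held no exons and no sequence under the peaks, the planned classes of region and motifs were not run. Named genes were all members, up to 5 genes with an N2A peak per pathway list in order of N2A p, and the 5 genes with counts nearest to those of Map1b. Dclk3, Dcdc2a, Map1lc3a, Pafah1b3, Nde1 and Dctn3 were added after their values were seen. The result of 1 sympathoadrenal marker is not reported here.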

Additional observations from a re-analysis of the deposited data

How the results depend on the processing

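Cortex peaks were found in all 10 members under each alternative tried, and N2A peaks in 6, or in 4 with p under 0.05 or the stronger 50% of the list. Keeping the stronger 50% of each list left 129 cortex and 18 N2A peaks in the members and 17 pathway genes with an N2A peak, by its construction. It moved the share in the last 5 kb to 18.6% in cortex and 83.3% in N2A, and the share over coding genes at that cut was not computed. With p under 0.05 the members' share was 14.4% in cortex and 72.7% in N2A, against 22.2% and 81.3% over coding genes. A window of 2 kb gave 8.33% in cortex and 24.1% in N2A, against 13.1% and 58.1% over all coding genes, and a window of 10 kb gave 16.7% and 65.5%, against 24.8% and 85.0%. The members' share lay under that of coding genes in each window. Without Map1b, an alternative added after the data were seen, the N2A share was 72.7% (43.4 to 90.3) of 11 peaks. That interval includes the 79.0% over coding genes. The overlap with cortex was then 18.2% of the same 11 peaks. No interval was computed for this value, and so few peaks give little precision. With all 10 members, allowing a gap of 1000 nt, also added later, raised the overlap from 17.2% to 65.5%. Of 100 recomputed counts of single members, 85 stayed within 1.5 times. Many of these could not move, since a count of 0 stays 0 and no member had peaks on the other strand. The 15 others came from the p limits. They were 11 of 20 counts with the stronger 50% of each list and 4 of 20 with p under 0.05. No paired analysis was possible because each group has 1 peak list with no replicate numbers. For the same reason no replicate could be left out. Depth is unknown and sets how many weak peaks a list can hold.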
